A study of Mus musculus with 2 samples.

Results

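A set of 7 noncoding genes that carry small nucleolar RNAs (snoRNAs) in their introns, Gas5, Snhg3, Snhg5, Snhg6, Snhg8, Snhg12 and Zfas1, were followed in total RNA from erythroblasts, which are nucleated red cell precursors, of the mouse. They were chosen by symbol, matched through Ensembl identifiers without version. Of the 7 members, 6 had a row among the 43346 gene rows, with 56 transcripts between them. The row for Snhg8 was not matched and its level is not analysed here. The data were 2 libraries of 1 group: primary cells of C57BL/6J mice, male, adult, at an age of 5 to 6 weeks, with an RNA input of 1 ng and added spike-ins. The labels give replicates 1 and 2 separate biosamples and a single donor entry, and separate animals are not stated. The spread between the libraries may therefore be technical, and with no second condition there was no test and no p-value.

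SnoRNAs are short nucleolar RNAs that pair with ribosomal, spliceosomal and other RNAs. Box C/D snoRNAs guide 2'-O-methylation by fibrillarin and box H/ACA snoRNAs guide pseudouridylation by dyskerin, while a few, such as U3 and U17, act in the cleavage of ribosomal RNA precursors. In vertebrates most are cut out of introns. A noncoding host is transcribed and spliced, its introns are debranched and trimmed to the snoRNA, and the spliced exons are often translated at the start, lost by nonsense-mediated decay, or kept as a long noncoding RNA. Several hosts begin with a 5' terminal oligopyrimidine (TOP) tract, the start sequence of ribosomal protein mRNAs, which ties their output to growth. Erythroblasts pass from rapid growth to growth arrest as they mature.

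The snoRNAs are printed first because their length bears on which of them could be measured. The annotation GENCODE M21 on mm10 places 24 snoRNA genes inside the 7 hosts on the same strand, and 22 of them had a row. A C box, TGATGA, lay in the first 20 bases and a D box, CTGA, in the last 20 bases of 15 of the 24 on the RNA strand. A further 6 without that C box had ACA in the last 8 bases, the end of the H/ACA class, and 3 had neither set of letters. The window of 20 bases was widened from 15 after the narrower one missed boxes. In the sequences below, from the GENCODE M21 transcripts and read 5' to 3', capitals mark these boxes. Snora73b (chr4:132352322-132352526, minus strand) and Snora73a (chr4:132352775-132352979, minus strand) lie in Snhg3, are the mouse U17 genes, and were the 2 hosted snoRNAs with at least 10 counts in both libraries.
Snora73b: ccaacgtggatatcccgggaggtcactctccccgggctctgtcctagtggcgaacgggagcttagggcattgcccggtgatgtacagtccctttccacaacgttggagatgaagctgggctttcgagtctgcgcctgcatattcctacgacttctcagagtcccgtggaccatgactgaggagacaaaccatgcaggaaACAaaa
Snora73a: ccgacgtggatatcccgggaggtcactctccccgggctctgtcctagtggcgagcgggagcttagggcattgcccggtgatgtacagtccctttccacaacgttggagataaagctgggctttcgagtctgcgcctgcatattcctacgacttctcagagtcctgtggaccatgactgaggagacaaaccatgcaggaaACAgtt
Snora24 of Snhg8 (chr3:123507937-123508066, minus strand) and Snora61 of Snhg12 (chr4:132310240-132310369, plus strand) are shorter H/ACA RNAs with a few counts.
Snora24: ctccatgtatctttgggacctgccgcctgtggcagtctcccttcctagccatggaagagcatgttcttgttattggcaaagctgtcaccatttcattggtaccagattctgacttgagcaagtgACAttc
Snora61: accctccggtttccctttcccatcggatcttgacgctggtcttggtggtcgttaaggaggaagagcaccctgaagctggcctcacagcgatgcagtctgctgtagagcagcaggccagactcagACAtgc
Snord80 of Gas5 (chr1:161037601-161037681, plus strand), Snord50a of Snhg5 (chr9:88521529-88521600, minus strand), Snord87 of Snhg6 (chr1:9942463-9942549, minus strand) and Snord12 of Zfas1 (chr2:167065276-167065365, plus strand) are C/D RNAs, 1 for each remaining host, and had 0 counts.
Snord80: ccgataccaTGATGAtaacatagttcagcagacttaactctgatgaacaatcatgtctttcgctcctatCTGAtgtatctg
Snord50a: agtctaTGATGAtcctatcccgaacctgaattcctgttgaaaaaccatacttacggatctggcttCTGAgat
Snord87: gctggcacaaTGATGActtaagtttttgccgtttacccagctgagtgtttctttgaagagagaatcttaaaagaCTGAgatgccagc
Snord12: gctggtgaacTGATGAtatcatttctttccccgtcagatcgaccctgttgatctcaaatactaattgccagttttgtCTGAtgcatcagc

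The host genes spanned a wide range of levels, given in TPM, transcript abundance corrected for length and scaled by the authors to the same total in each library. Gas5 was far above the others, 5 members reached a TPM of 1 in both libraries, and Snhg3 fell short in replicate 1. At least 10 counts in both libraries were found for all 6, and for 23.4% of genes with a symbol. A TPM of 1 in both libraries was reached by 8.12% of all genes with a symbol, by 14.5% of nuclear protein-coding genes, and by 1.29% of the 5434 genes typed lincRNA, antisense or processed transcript. Summed over the members, TPM was 37.3 in the first library and 46.7 in the second, a mean of 42.0 ± 6.64 TPM (SD, n = 2), and their median was 2.52 ± 0.0955 TPM (SD, n = 2). Nuclear protein-coding genes together took 4.68% and 5.10% of all TPM, although single genes such as Hbb-bs, with a mean of 7310 TPM, were high. This share does not cover noncoding genes. The 2 libraries held 80804873 and 117026199 expected counts over gene rows. In bulk RNA, fewer cells of a type and less RNA per cell cannot be told apart.

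Gas5 (growth arrest specific 5; chr1:161034422-161038539, plus strand), a host whose spliced RNA is known to build up in growth-arrested cells, stood at 25.5 TPM in replicate 1 and 33.4 in replicate 2, from 1006 and 1682 expected counts. Its mean of 29.4 ± 5.61 TPM (SD, n = 2) lay above 99.3% of nuclear protein-coding genes and ranked 5 among genes of the 3 noncoding types. It exceeded the next host, Zfas1, 7.16 times. Gas5 alone held most of the members' summed TPM in each library, and it has the most snoRNA genes, 10 at 9 positions.

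Zfas1 (chr2:167062934-167065862, plus strand), a host of C/D snoRNAs transcribed away from the promoter of Znfx1, stood at 4.05 and 4.17 TPM, from 151 and 261 counts. The libraries were close, with a mean of 4.11 ± 0.0849 TPM (SD, n = 2). Snhg5 (chr9:88521050-88522929, minus strand), the host of the U50 snoRNAs, stood at 3.19 and 2.55 TPM from 136 and 172 counts. It was the one member whose TPM was lower in replicate 2.

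Snhg6 (chr1:9941959-9944118, minus strand), the host of Snord87, stood at 1.99 and 2.29 TPM from 47 and 76 counts. Snhg12 (chr4:132308623-132311024, plus strand), which carries 3 H/ACA RNAs and a C/D RNA at its 4 positions, stood at 1.84 and 1.93 TPM from 66 and 91.6 counts. Both were low but above a TPM of 1 in each library, and their ranges nearly met.

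Snhg3 (chr4:132348014-132353686, minus strand), the host of both U17 genes, stood at 0.770 and 2.36 TPM from 19.4 and 71.2 counts. The libraries were 3.06-fold apart in TPM, the widest gap among the 6. In order of mean TPM, the ranges of neighbours did not overlap from Gas5 through Zfas1, Snhg5 and Snhg6 to Snhg12, while Snhg12 and Snhg3 overlapped and so did not differ beyond their spread. The range of Snhg3 also took in that of Snhg6. With 2 libraries a range is a weak guide: the lowest Snhg6 value was 1.99 and the highest Snhg12 value 1.93.

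**Figure D1:**
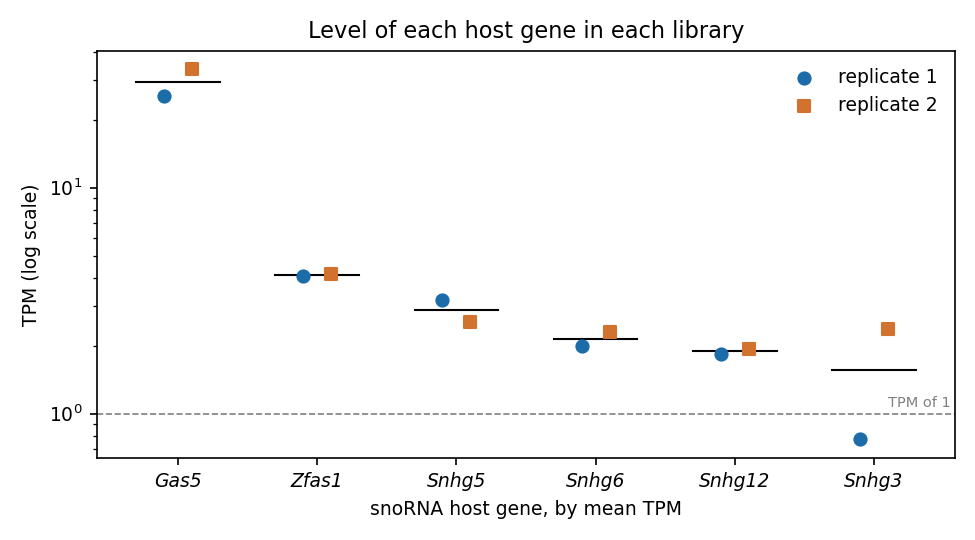
TPM on a log axis for the 6 host genes with a row, ordered by mean; circles are replicate 1, squares replicate 2, short lines the mean of the 2 libraries and the dashed line a TPM of 1. Gas5 stands at 25.5 and 33.4 TPM, and Snhg3 is below 1 in replicate 1 at 0.770 TPM.

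All 6 hosts ranked high for noncoding genes, from rank 5 for Gas5 to rank 61 for Snhg3 of 5434. Against nuclear protein-coding genes they lay above 88.3% (Snhg3) to 99.3% (Gas5). Other noncoding snoRNA hosts with a matched row were lower, but the members and lists were chosen with earlier results of these data known. Of 15 other hosts listed, 10 were matched and 0 reached a TPM of 1 in both libraries, with a median of 0.152 ± 0.152 TPM (SD, n = 2). The 5 not matched, Snhg1, Snhg4, Snhg7, Snhg10 and Dancr, have no level here. Snhg14, the host of imprinted snoRNA clusters, stood at 0.410 and 0.630 TPM, Epb41l4aos at 0.710 and 0.270 TPM, Snhg15 at 0.350 and 0.480 TPM and Snhg17 at 0.740 and 0.0700 TPM. Snhg11, kept in this list although GENCODE M21 types it as protein-coding, had 0 counts, as did Snhg9, Snhg18 and Rian. For these, 3 counts is the upper limit, which for a transcript length of 1 kb equals 0.0482 TPM in the first library and 0.0333 TPM in the second.

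Protein-coding genes with a snoRNA gene inside them on the same strand numbered 276, of which 112 (40.6%) reached a TPM of 1 in both libraries, with a median of 0.672 ± 0.0247 TPM (SD, n = 2). Among the highest of these were Tpt1, a growth-linked TOP gene, at 92.2 ± 12.8 TPM and the ribosomal protein genes Rps2 and Rps12 at 72.8 ± 18.0 and 61.6 ± 15.3 TPM (SD, n = 2). Gas5 lay below those 3 coding hosts in both libraries.

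The cell type label was checked against marker genes. All 10 erythroid markers and all 10 neutrophil and monocyte markers reached a TPM of 1 in both libraries, and 1 of 8 lymphoid markers did, Nkg7. The erythroid list summed to 17639 and 18981 TPM and the neutrophil and monocyte list to 2186 and 2523 TPM, led by S100a9 at 747 ± 118 TPM (SD, n = 2). Most of the erythroid sum came from the globin genes Hbb-bs, Hba-a2 and Hba-a1, with means of 7310, 7301 and 3075 TPM. The list medians were closer, at 136 ± 5.65 TPM for erythroid and 108 ± 2.69 TPM for neutrophil and monocyte markers (SD, n = 2). The lymphoid markers Cd3d and Cd8a had 0 counts. The snoRNA hosts are expressed in many cell types. The share of their RNA from cells of the neutrophil lineage was not tested.

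The next comparison asked how far the libraries differed for each host once scaled for depth. Expected counts were rounded and scaled by TMM, edgeR's normalization, and the ratio of replicate 2 to replicate 1 was taken. Of the 6 hosts, 5 were within 1.5-fold. The remaining host, Snhg3, was past it, where 36.4% of the 9957 genes kept by the expression filter were, 18.3% with the higher value in replicate 2 and 18.1% in replicate 1. The median log2 ratio of the members was 0.07, against 0.00 over all kept genes, with 4 members higher in replicate 2 and 2 in replicate 1.

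Gas5 had a log2 ratio of 0.10 in scaled counts but was 1.31-fold higher in replicate 2 by TPM. Its effective length, the mean number of positions at which a fragment could start, was 549 bases in replicate 1 and 475 in replicate 2. Among 546 genes with a mean count within 1.5 times that of Gas5, the median absolute log2 ratio was 0.16. Zfas1, Snhg6, Snhg12 and Snhg5 had log2 ratios of 0.14, 0.05, -0.16 and -0.30. Genes of like depth had median absolute log2 ratios of 0.39, 0.66, 0.61 and 0.44, so these 4 hosts differed less than the median gene of like depth. Snhg12 was lower in replicate 2 by counts and higher by TPM, and its direction is not set by these data.

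Snhg3 had a log2 ratio of 1.19, a 2.28-fold higher scaled count in replicate 2. In CPM, counts scaled to the library total, Snhg3 stood at 0.240 in replicate 1 and 0.608 in replicate 2, with exact Poisson 95% intervals of 0.142 to 0.367 and 0.474 to 0.765 from the rounded counts. These depth-scaled intervals, which cover counting error only, do not overlap. Of 1983 kept genes with a mean count within 1.5 times that of Snhg3, 60.1% were past 1.5-fold and 28% had a larger ratio. The gene Rcc1, which encodes the nucleotide exchange factor of Ran, starts 81 bases from Snhg3 on the same strand and overlaps it over 5592 bases. Rcc1 had 42 counts in replicate 1 and 177 in replicate 2, a log2 ratio of 1.40. The 2 genes share 135 exon bases, 13.7% of the exon bases of Snhg3, and the deposited posterior SD of the Snhg3 count, which measures how firmly shared reads were placed, was 2.36 in replicate 1 and 4.92 in replicate 2. Whether shared reads or shared transcription set the like ratios was not tested.

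**Figure D2:**
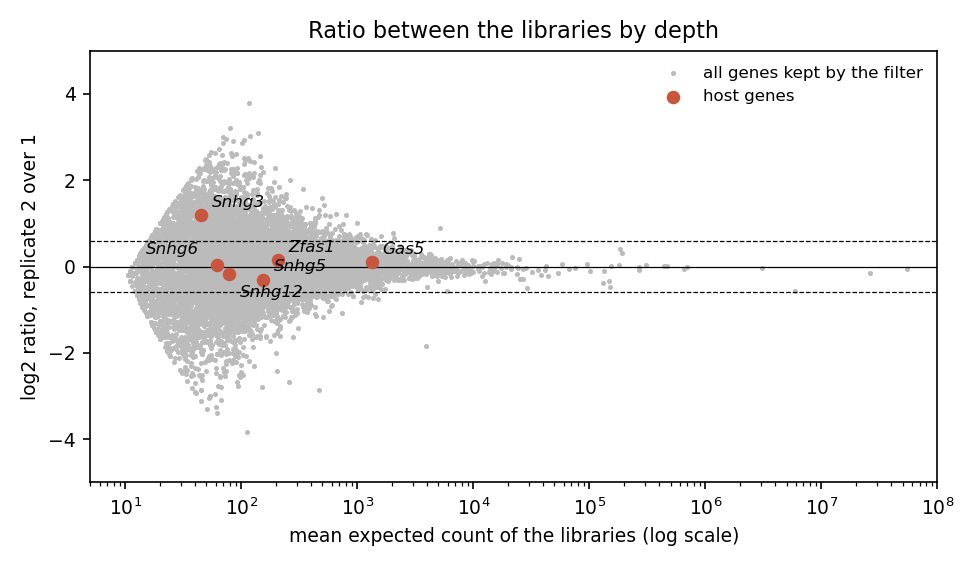
Log2 ratio of TMM-scaled counts, replicate 2 over replicate 1, against the mean expected count on a log axis, for genes kept by the expression filter (grey) and the 6 hosts (red); dashed lines mark 1.5-fold. Snhg3 lies above the upper line at 1.19, and the other 5 hosts lie between the lines.

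The hosted snoRNAs themselves were measured only where they were long. Of the 22 rows, 12 had an effective length of 0 in both libraries and 3 in replicate 2, so no fragment could be placed on them there, whatever the cells held. The longest row with an effective length of 0 in both libraries had 84 bases. The shortest row with any count had 129 bases, and 16 rows had 0 counts in both libraries. Counts of at least 10 in both libraries were found for 2 of the 22 rows, against 1.7% of all 1525 snoRNA and scaRNA rows.

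Snora73b, of 205 bases, had 233 and 249 counts at an effective length of 74.8 and 61.7 bases, equal to 43.3 and 38.0 TPM. Snora73a, of the same length, had 69.2 and 42.6 counts, or 12.9 and 6.51 TPM. The 2 sequences printed above agree at 198 of 205 aligned bases (96.6%), so their reads could be shared out in part, and the posterior SD of the count was 1.40 and 1.90 for Snora73b and 1.47 and 2.16 for Snora73a. Snora73b was higher than Snora73a in both libraries. By TPM, which is per length, both snoRNAs were above their host Snhg3 in each library, although their levels rest on a short effective length. In replicate 2 the host was higher and both snoRNAs were lower by TPM than in replicate 1.

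Snora24 had 7 counts in replicate 1 and 3 in replicate 2, the one reading from inside Snhg8. The H/ACA RNAs of Snhg12 had 0 counts in replicate 1. In replicate 2 Snora16a had 4, Snora44 3.72 and Snora61 1.7 counts. Counts this low give a level for none of them. The 9 rows inside Gas5, the 2 inside Snhg5, the 1 inside Snhg6 and the 3 inside Zfas1 had 0 counts. No level can be read from these tables for the C/D snoRNAs inside the hosts, and a ratio of snoRNA to host can be formed for Snhg3 alone. The exons of the transcript Snhg3-202 hold part of Snora73a. It held 32.5% of Snhg3 TPM in replicate 1 and 5.51% in replicate 2. Whether reads of host and snoRNA were mixed there was not tested.

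**Figure D3:**
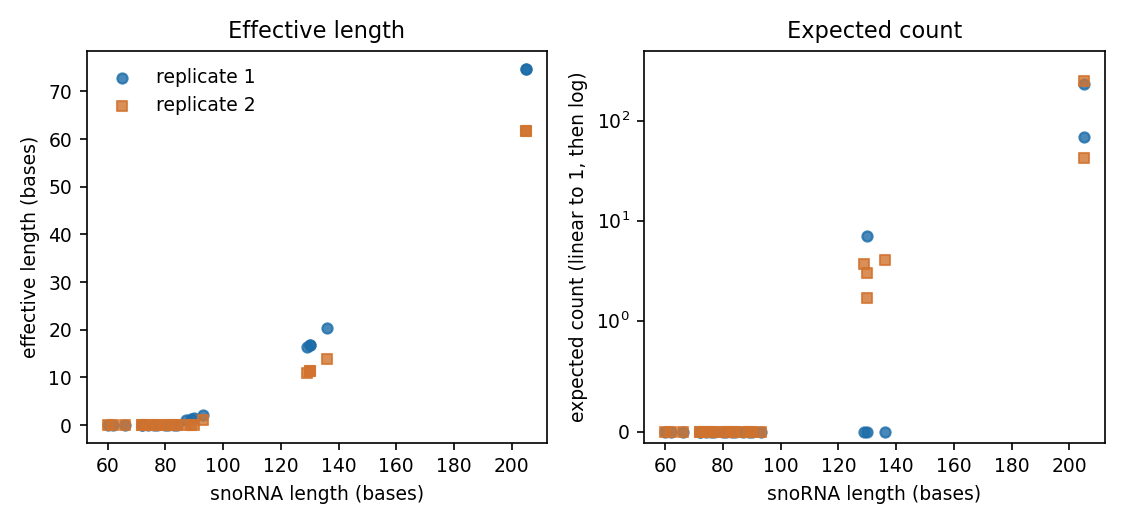
Effective length (left) and expected count (right, linear to 1 and then log) against snoRNA length for the 22 hosted snoRNA rows; circles are replicate 1 and squares replicate 2. Rows up to 84 bases sit at an effective length of 0, and the counts near the top belong to the 2 rows of 205 bases.

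Transcript models differed in whether they kept intron sequence. GENCODE types 27 of the 56 transcripts as retained intron, meaning a transcript that holds sequence other models splice out, and 20 of these belong to Gas5. They carried 57.3% of the members' TPM in replicate 1 and 54.1% in replicate 2, a mean of 55.7 ± 2.31% (SD, n = 2). The share was 64.3% and 63.4% in Gas5, 64.7% and 58.4% in Zfas1, and 74.9% and 64.7% in Snhg5. Snhg3, Snhg6 and Snhg12 have no transcript of that type among the deposited ones. Among 1532 detected protein-coding genes with such a transcript the median share was 12.3 ± 0.0719% (SD, n = 2), and 10.9% of them held 50% or more in both libraries. Among 64 detected coding snoRNA hosts the median was 9.37 ± 0.629% (SD, n = 2) and 8 reached 50% in both. The detected noncoding genes with such a transcript, members left out, were 3, with medians of 44.2% and 34.7%, and 1 of them reached 50% in both. The share depends on how many such models are annotated, which was not matched between these sets.

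Exon coordinates were then compared with snoRNA positions, for transcripts whose M21 model has the deposited length. In Gas5, transcripts with a whole snoRNA in their exons held 44.6% and 42.5% of TPM, those with part of one 13.6% and 13.7%, and those with none 41.8% and 43.8%. The split was nearly the same in both libraries. In Zfas1 the share with a whole snoRNA was 11.9% and 39.5%, and in Snhg5 54.2% and 24.3%, so both differed widely between the libraries. Transcripts with no model of the deposited length held 35.3% and 34.7% of TPM in Zfas1 and 41.1% and 51.8% in Snhg5, and their snoRNA content was not read. All of Snhg6 lay in transcripts with no snoRNA base in their exons. For Snhg12 the share with a whole snoRNA was 12% and 11.9%, but 77.2% and 37.6% of its TPM lay in transcripts with no model of that length. Over all members the share with a whole snoRNA was 36.4 ± 0.884% (SD, n = 2). These shares rest on dividing reads among overlapping models. The number of unspliced host molecules, and whether fragments of excised snoRNAs entered the models that hold them, was not tested. These exon classes were set after the values were seen.

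**Figure D4:**
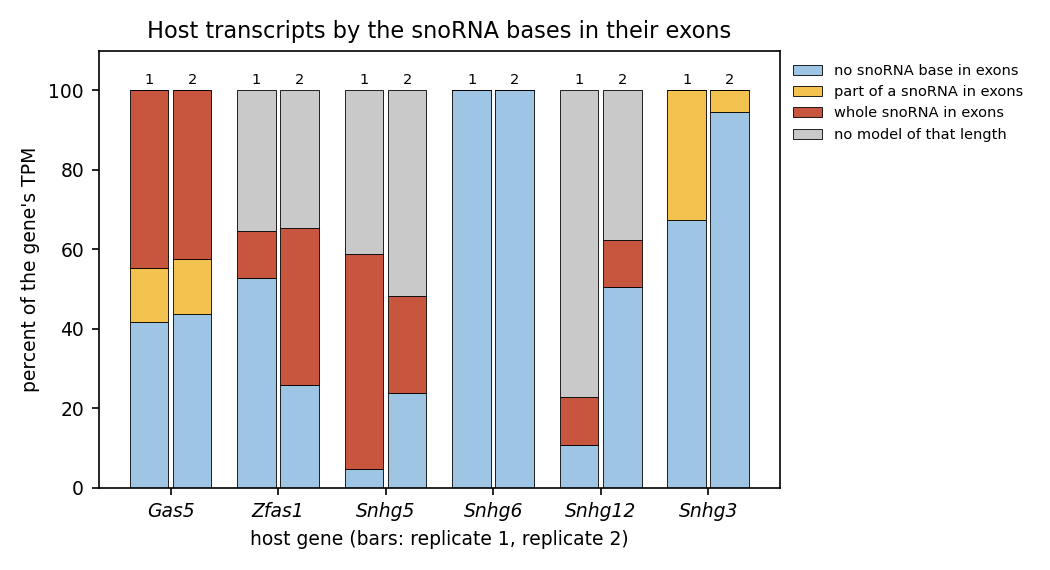
Percent of each host's TPM in transcripts with no snoRNA base, part of a snoRNA, or a whole snoRNA in their exons, or with no model of the deposited length; paired bars are replicate 1 and replicate 2. Gas5 keeps a whole snoRNA in 44.6% and 42.5% of its TPM, and Snhg6 has 100% without a snoRNA base.

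Leading transcripts, those with the highest TPM of a gene, were the same in both libraries for 2 of the 5 detected hosts, Gas5 and Snhg6. Of detected genes with 5 or more transcripts and a mean of 40 to 300 counts, 55.7% kept their leading transcript, a depth class chosen after the values were seen, and 75.5% of all detected genes with 2 or more transcripts did. Gas5, with a mean of 1344 counts, lies outside that depth class. Of the detected hosts inside it, Snhg6 kept its leader and Zfas1, Snhg5 and Snhg12 did not. Gas5-224, a spliced transcript of 12 exons and 502 bases with no snoRNA base, led Gas5 with 31.4% and 36.6% of its TPM. Next came the retained-intron transcripts Gas5-221 with 13.6% and 13.7% and Gas5-211 with 8.56% and 11.1%. The remaining Gas5 transcripts each held under 10% in both libraries.

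Snhg6-203 led Snhg6 with 85.7% in replicate 1 and 52.6% in replicate 2, and Snhg6-204 held 14.3% and 41.2%. Zfas1 was led by the retained-intron transcript Zfas1-203 in replicate 1, at 52.8% against 18.9% in replicate 2. In replicate 2 its leader was ENSMUST00000125674, which has no M21 entry and held 35.2% and 34.7%, just ahead of Zfas1-201 at 32.8%. By the posterior mean ENSMUST00000125674 stood at 0.710 and 0.860 TPM, against 1.43 and 1.45 by the deposited TPM, so its level depends on the estimate. Zfas1-201 stood above it in replicate 2 by the posterior mean, at 1.37 TPM. The leader of Zfas1 in replicate 2 is therefore not set by these data.

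Snhg5 passed from Snhg5-204, with Snord50a in its exons and 30.2% of TPM in replicate 1, to Snhg5-206 with 40.3% in replicate 2. Snhg12 passed from Snhg12-202 with 65.1% to Snhg12-206 with 50.8%. In replicate 2 these transcripts had 31.6 and 47.3 counts, with posterior SDs of 22.5 and 22.2. The leader of Snhg12 in replicate 2 is therefore not set by these data. Snhg3, not among the detected hosts, passed from Snhg3-204 with 68.0% to Snhg3-203 with 89.9%, the latter at 0 counts in replicate 1. These shares rest on few reads: the leader of Snhg12 had 38.8 counts in replicate 1 and 47.3 in replicate 2, and that of Snhg3 11.4 and 61.9. The 3 named Gas5 transcripts, by contrast, kept their order in both libraries, although minor ones such as Gas5-216 passed from 0% to 7.86%.

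**Figure D5:**
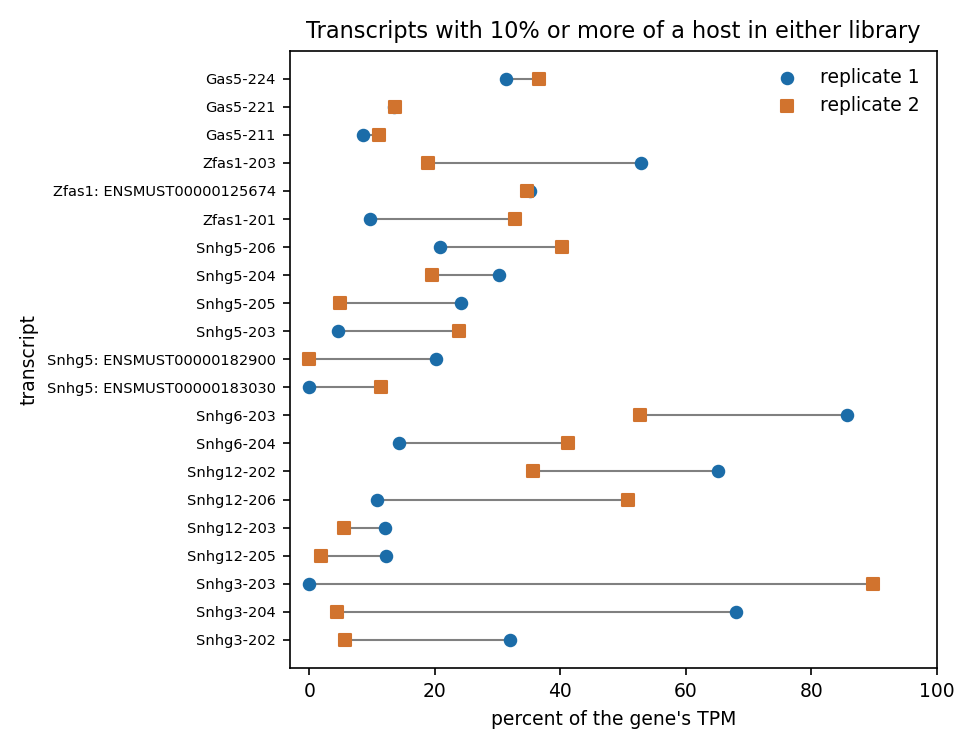
Percent of the host's TPM held by each transcript with 10% or more in either library; circles are replicate 1, squares replicate 2, and grey lines join them. The 3 Gas5 transcripts lie close in both libraries, while Snhg3-203 goes from 0% to 89.9%.

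The start of each host was read for a TOP tract, searched as a C followed by at least 4 bases that are C or T, in the 20 bases either side of the RefSeq start on GRCm38.p6. The RefSeq table held 7 start windows for 6 of the members. The tract was found on the gene's strand in 5 of the 7 windows, where 46.7% of 32851 promoters hold it, and on the other strand in 3, where 50.7% do. A longer form, with at least 7 C or T bases after the C, was found on the gene's strand in Snhg12, where 12.8% of promoters hold it. Tracts that began within 2 bases of the annotated start, a limit chosen after the windows were seen, were found for Gas5 at its second start, Snhg12, Snhg3 and Snhg8, where 7.18% of promoters have one. Of 10 TOP mRNA genes from the list used here with a window, 1 did. Only the first window of each of these genes was read, while every window of a host was. The 2 counts are therefore not like for like, and RefSeq starts read this way are a coarse guide. The 4 windows are printed 5' to 3' with the tract in capitals, from chr1:161035146-161035186 (plus), chr4:132308658-132308698 (plus), chr4:132353666-132353706 (minus) and chr3:123508316-123508356 (minus). A match describes letters and not a site in use.
Gas5: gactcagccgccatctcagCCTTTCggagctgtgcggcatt
Snhg12: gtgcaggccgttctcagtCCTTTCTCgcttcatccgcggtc
Snhg3: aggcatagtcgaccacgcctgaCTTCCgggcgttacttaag
Snhg8: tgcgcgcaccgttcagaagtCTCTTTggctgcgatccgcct

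The TOP mRNAs other than ribosomal protein genes, a list of 16, all reached a TPM of 1 in both libraries, with a median of 8.82 ± 0.343 TPM (SD, n = 2). Pabpc1, the cytoplasmic poly(A)-binding protein, stood at 307 ± 10.1 TPM, the elongation factor Eef1a1 at 202 ± 19.9 TPM, Tpt1 at 92.2 ± 12.8 TPM and Rack1 at 31.0 ± 2.47 TPM, with Eif3f and Eif4b lowest at 2.96 ± 0.403 and 1.78 ± 0.0849 TPM (SD, n = 2). The range of Gas5 overlapped that of Rack1. Zfas1 was above Eif3f in both libraries, and the other 4 hosts had means below it. None of the 16 was past 1.5-fold between the libraries, where 36.4% of all genes kept by the expression filter were. Among genes with a mean count within 1.5 times that of Gas5, 4.58% were past it. The 16 were not compared with genes of like depth.

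The genes of the proteins that turn host introns into snoRNPs stood below Gas5. Of the 8 core proteins, 5 reached a TPM of 1 in both libraries, with a median of 1.5 ± 0.0106 TPM (SD, n = 2). The C/D proteins Nop56, Nop58 and Snu13 stood at 5.2 and 5.27, 1.83 and 4.53, and 2.22 and 1.97 TPM, and the H/ACA pseudouridine synthase Dkc1 at 1.67 and 1.70 TPM. The H/ACA protein Gar1 had the lowest mean, at 0.730 and 0.750 TPM. The H/ACA protein Nhp2, at 1.32 and 0.390 TPM, and the C/D methyltransferase fibrillarin (Fbl), at 1.17 and 0.540 TPM, shared the next lowest mean. Nop58 was higher and Nhp2 lower in replicate 2, and 4 of the 8 were past 1.5-fold, where 36.4% of all genes kept by the expression filter were.

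Assembly factors were lower still, with 2 of 11 matched genes at a TPM of 1 in both libraries and a median of 0.375 ± 0.0636 TPM (SD, n = 2). Pih1d1 and Ruvbl2, of the assembly complex, stood at 2.35 ± 1.06 and 1.25 ± 0.332 TPM, Nolc1 and Ruvbl1 at 0.640 ± 0.156 and 0.510 ± 0.127 TPM, and Rpap3 and the dyskerin chaperone Shq1 at 0.0850 ± 0.0636 and 0.0750 ± 0.0778 TPM (SD, n = 2). Of 11 genes of intron debranching and snoRNA trimming, 5 reached that level, led by the exonucleases Xrn1 and Xrn2 at 2.17 ± 0.898 and 1.81 ± 0.417 TPM, then Mtrex and Rbm7 at 1.67 ± 0.389 and 1.48 ± 0.205 TPM (SD, n = 2). The debranching enzyme Dbr1 and the deadenylase Parn were lowest at 0.330 and 0.130 and at 0.150 and 0.150 TPM.

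Of 10 factors of nonsense-mediated decay, the pathway that removes the spliced RNA of several hosts, 3 reached a TPM of 1 in both libraries. Among them were the endonuclease Smg6 at 3.72 ± 0.219 TPM and Smg5 at 1.44 ± 0.0636 TPM (SD, n = 2). Upf2 stood at 0.910 and 1.06 TPM, the helicase Upf1 at 0.450 and 0.360 TPM and Smg8 at 0.160 and 0.270 TPM. Gas5 and Zfas1 had a higher mean TPM than Smg6, the highest of these factors, while Snhg5, Snhg6, Snhg12 and Snhg3 had a lower one. Gas5 exceeded every factor of the 4 processing lists.

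Some hosts overlap genes on the other strand, and the sources used here do not say whether counting used strand. Gas5 overlaps Zbtb37 over 428 bases, and Zbtb37 stood at 0.140 and 0.0700 TPM. Zfas1 overlaps Znfx1 over 82 bases at its start, and Znfx1, a helicase gene, stood at 1.42 and 1.66 TPM. Snhg6 overlaps Mcmdc2 over 127 bases, at 0.150 TPM in replicate 1 and 0 counts in replicate 2. Gas5, Zfas1 and Snhg6 were each above these partners in both libraries. Snhg3 overlaps the lincRNA gene Gm17300 over 1611 bases, and Gm17300 stood at 0.180 and 0.230 TPM. Gm17300 had 18.19 and 34.15 counts, against 19.4 and 71.2 for Snhg3. Whether reads of the 2 genes were mixed was not tested. Snhg12 and Snhg3 lie 36989 bases apart on chromosome 4, on opposite strands.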

How the data were processed

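Total RNA was sequenced in 2 libraries. Per the deposited read-me, gene and transcript tables came from a transcriptome alignment on mm10 with GENCODE M4; for the aligner and quantifier a name is not given in the sources used here. Expected counts as deposited by the authors are estimated reads, shared out among matching places and need not be whole, and the deposited TPM was scaled over all rows, spike-ins included. Deposited FPKM and the posterior mean TPM, a score, served as alternatives, and the deposited posterior SD of the count, a score, as a measure of sharing. Percent of gene TPM per transcript was deposited too.

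Of 43346 gene rows, 42462 matched GENCODE M21 by identifier; unmatched rows held 0.0126% and 0.0124% of counts. The 26248 numbered rows and 97 spike-in rows were left out. Of the members' transcripts, 48 had an M21 model of the same length, 5 of another length and 3 none. Rounded counts were scaled with edgeR 4.0.16 (TMM factors 0.962 and 1.04, prior count 2, 9957 genes kept by its filter); its biological coefficient of variation was 33.5%. DESeq2 1.42.0 gave alternative size factors. The ratio step was tested on simulated data with 200 changed genes. The simulated variation was smaller than that of these data. The changed genes had higher mean counts than Snhg3, Snhg6 and Snhg12, so hosts of that depth were not covered. Nuclear protein-coding genes took 5.44% and 5.82% of counts; intervals and limits of 0 counts cover counting error only.

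The members and lists were chosen with earlier results of these data known. Named were all members, transcripts with 10% or more in either library, hosted snoRNAs with at least 10 counts in both libraries, up to 4 highest and 2 lowest genes of each list, and the 4 highest coding hosts; other snoRNAs, neighbouring genes, Snhg9, Snhg11 and Fbl were named after their values were seen. A few genes this rule would name are not reported here. The listed symbols Snhg1, Snhg4, Snhg7, Snhg10, Dancr and Bcd1 were not matched; Bcd1 is an older name of Znhit6, which was.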

Additional observations from a re-analysis of the deposited data

How the results depend on the processing

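Under alternative settings 80 values were recomputed. Direction was compared only for the ratio past 1.5-fold, that of Snhg3, which kept its direction under each alternative. The log2 ratio of Snhg12, within 1.5-fold, went from -0.16 to 0.07 by TPM. With a TPM of at least 2 in place of 1, 3 members were detected, and with 0.5, by the posterior mean or by 10 counts 6 were, the addition being Snhg3. Detection gave 5 to 6 members when 1 library was left out. The posterior mean moved the median TPM of the members to 2.63, beyond the spread between the libraries, and leaving out transcripts with no M21 entry, an alternative chosen after seeing the data, moved the retained-intron share to 58.4%; leaving out 1 library gave 54.1 to 57.3%. The cause of these shifts was not tested, except that the last has a smaller denominator by construction. Snhg3 remained the 1 host past 1.5-fold under DESeq2 size factors, library totals and TPM. The log2 ratio of Gas5 was 0.21 by library totals and 0.39 by TPM. No paired analysis was possible because the design holds 1 group. Depth limits Snhg3, Snhg6 and Snhg12, at under 100 counts a library; for the hosted snoRNAs of effective length 0, length and not depth is the limit.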

Other observations

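Outside the hosts, few snoRNA rows were measured. Of 1525 snoRNA and scaRNA rows, 26 had at least 10 counts in both libraries. Among the 461 rows of up to 100 bases, 0 did, and among the 31 rows of over 200 bases 12 did (38.7%). By mean TPM Snora73b ranked 7 of all these rows. Above it stood Gm22988, at 277 ± 19.1 TPM, the U3 genes Rnu3b2, Rnu3b4 and Rnu3a, Snora64 at 112 ± 26.5 TPM and Snord15b at 44.0 ± 12.6 TPM (SD, n = 2). Rnu3b2 and Rnu3b4 have the same estimate, 1228.5 and 1355.5 counts each. These genes were named after their values were seen.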
